A study of Homo sapiens with 6 samples.

Results

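H19 and MEG3 are genes for long non-coding RNAs that are expressed from the maternal chromosome only, and they were chosen by symbol from the authors' deposited table of genes selected as different between mitoxantrone and DMSO. They are 2 of its 1305 genes, 1 among the 512 lower with mitoxantrone and 1 among the 793 higher. The cells were NCI-H292, an established line of human lung cancer cells and the 1 line used. The DMSO group received the solvent DMSO at a dilution of 1 in 1000, and the mitoxantrone group received 50 nM of mitoxantrone, a topoisomerase II poison that leaves breaks in DNA. Both groups were kept for 48 hours after being plated overnight, and each group has 3 RNA sequencing libraries, numbered 1 to 3. The labels do not say whether the libraries came from separate cultures, so the spread between them may be technical and p-values measure that spread only. The libraries held 14762592 to 17817829 reads assigned to genes. In bulk RNA of this kind, fewer cells with a transcript and less transcript per cell cannot be told apart.

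Imprinted genes carry a mark, set in the germ line as DNA methylation, that silences the copy from one parent. H19 lies beside IGF2 on the short arm of chromosome 11, where the protein CTCF binds the unmethylated maternal control region and keeps enhancers on H19 and away from IGF2. H19 RNA is abundant in the embryo, is low in most adult tissues, is often found again in tumours, and is the precursor of miR-675. MEG3 lies in the DLK1 region on the long arm of chromosome 14, is silent in many tumours and tumour lines, hosts miR-770, and has been reported to raise the activity of the tumour suppressor p53.

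The microRNAs miR-675 and miR-770 are shown because H19 is the precursor of the former and MEG3 the host of the latter. The seed, bases 2 to 8, is in capitals, and the sequences are from RefSeq (GRCh38.p14), read 5′ to 3′.
hsa-miR-675-5p: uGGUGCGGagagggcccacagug
hsa-miR-675-3p: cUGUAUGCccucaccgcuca
hsa-miR-770-5p: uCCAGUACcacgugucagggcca
The 3 seeds differ from one another. Among 2370 mature human microRNAs in the same table, 1 other (hsa-miR-4466) has the seed of miR-675-5p, 0 others have that of miR-675-3p and 1 other (hsa-miR-4712-5p) has that of miR-770-5p. The 3 shown lie at chr11:1996800-1996822 and chr11:1996768-1996787 on the minus strand and at chr14:100852409-100852431 on the plus strand. Mature microRNAs were not measured in these libraries, so the reads below speak of the long host transcripts.

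The promoters are shown because the transcripts differed in opposite directions between the groups. Each window runs from 250 bases before the RefSeq start to 50 bases into the gene, on the gene's own strand, in GRCh38.p14, at chr11:2001217-2001516 (minus) for H19 and at chr14:100825858-100826157 (plus) for MEG3. For MEG3, which has 3 such windows, the most upstream of the 3 is given. Capitals mark matches to the motifs searched.
H19 promoter: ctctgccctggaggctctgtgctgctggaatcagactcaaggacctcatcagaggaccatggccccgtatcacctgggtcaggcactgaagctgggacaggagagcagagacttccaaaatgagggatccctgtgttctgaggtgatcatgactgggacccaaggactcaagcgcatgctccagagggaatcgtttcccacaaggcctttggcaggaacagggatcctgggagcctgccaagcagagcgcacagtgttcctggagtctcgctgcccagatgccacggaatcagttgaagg
MEG3 promoter: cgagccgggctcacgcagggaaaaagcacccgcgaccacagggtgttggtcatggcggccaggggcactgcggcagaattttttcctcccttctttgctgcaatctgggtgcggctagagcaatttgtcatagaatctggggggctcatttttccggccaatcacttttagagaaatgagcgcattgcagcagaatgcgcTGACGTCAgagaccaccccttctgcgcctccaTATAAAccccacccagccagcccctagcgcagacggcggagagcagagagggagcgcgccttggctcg
The motifs, searched on both strands, were the TATA box TATAAA, the GC box GGGCGG, the E-box CACGTG, the cAMP response element TGACGTCA, the E2F sites TTTCGCGC and also TTTGGCGC, and the core of the CTCF motif, and no match overlapped another. The MEG3 window holds TGACGTCA, starting 50 bases before the RefSeq start, and TATAAA starting 18 bases before it. That start lies inside the longer span that GENCODE release 29 gives MEG3. The MEG3 window is thus upstream of the RefSeq transcript and not of the whole GENCODE gene. The H19 window also lies partly inside the GENCODE gene of H19, which reaches to 2001470 on chromosome 11. Of 35116 promoter windows of this length, 1.85% hold TGACGTCA and 11.5% hold TATAAA. The E-box is in 7.26% of windows and the GC box in 45%, the E2F sites in 0.515% and 0.652% and the CTCF core in 0.0655%, and neither gene's window holds these. The H19 window holds none of the motifs, which says only that these letters are not in this window. The H19 window has 6 CpG dinucleotides and the MEG3 window has 19, against a median of 14.0 over all windows. The windows are similarly rich in G and C, at 57.7% and 59%.

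H19 was one of the most abundant transcripts of the table with DMSO and was about 7 times less abundant with mitoxantrone. H19 (ENSG00000130600) lies on the minus strand of chromosome 11, from 2016406 to 2022700 in the deposited coordinates, whose build is not given in the sources used here. They differ from GRCh38, where the same identifier starts at 1995176 in GENCODE release 29, although both give a width of 6295 bases. The DMSO libraries 1, 2 and 3 held 12101, 12326 and 16366 raw reads of H19, and the mitoxantrone libraries held 1557, 1707 and 1707. All 3 DMSO libraries were high and all 3 mitoxantrone libraries were low, with no overlap, as for 98.6% of the listed genes. In reads normalized by the authors' size factors, which correct for library depth, H19 stood at 10398, 12700 and 14022 with DMSO and at 1761, 1779 and 1832 with mitoxantrone. The lowest DMSO library was still 5.68 times the highest mitoxantrone library.

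The mean level of H19 was 6.91-fold lower with mitoxantrone, at 1790 ± 37.2 normalized reads (SD, n = 3) against 12373 ± 1834 (SD, n = 3). In FPKM, the authors' scale of fragments per gene length and library size, the DMSO and mitoxantrone means were 283 ± 41.3 (SD, n = 3) and 39.1 ± 1.73 (SD, n = 3). The difference was thus many times the spread within either group. Fitted with edgeR, the log2 fold change was -2.79 (standard error 0.16). In the authors' deposited table it is -2.72 (standard error 0.12), and the adjusted p is 1.11e-110. These values selected the gene, and no further test is made on them.

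The spread of H19 was unequal between the groups. With DMSO the coefficient of variation was 14.8%, while counting error alone would give 0.858%, and library 3 held 1.35 times the level of library 1. With mitoxantrone it was 2.08%, close to the 2.46% of counting error, and the highest library was 1.04 times the lowest. In normalized reads the mitoxantrone libraries thus varied by about as much as the sampling of reads gives. In FPKM their coefficient of variation was larger, at 4.43%, against 14.6% with DMSO.

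**Figure D1:**
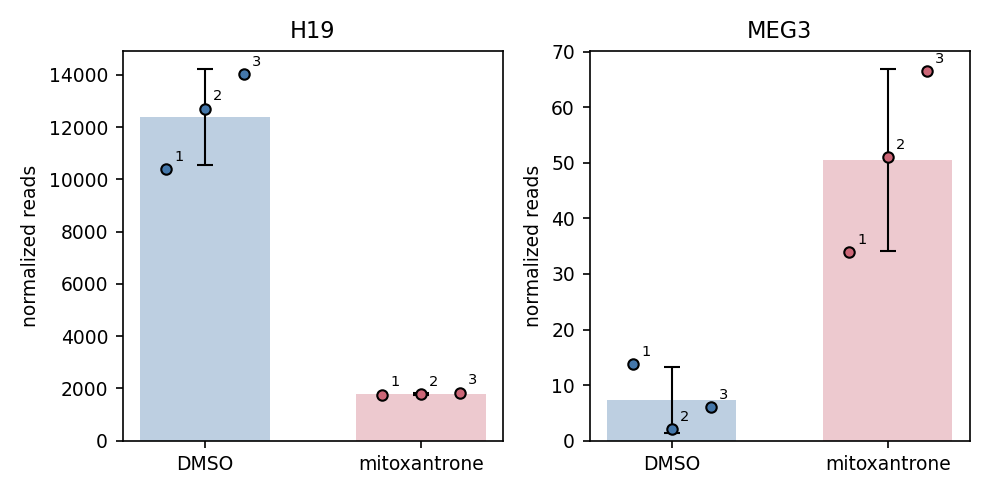
Normalized reads of H19 (left) and MEG3 (right) on linear axes from 0, with 3 libraries per group as numbered points, the bar as the mean and the error bar as the SD. H19 lies between 10398 and 14022 with DMSO and between 1761 and 1832 with mitoxantrone, and MEG3 between 2.06 and 13.8 with DMSO and between 33.9 and 66.5 with mitoxantrone.

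Among the listed genes H19 stood out by level. Per length, it ranked 7 of 1305 with DMSO and 71 with mitoxantrone. Its difference of -10583 normalized reads was the largest of the 512 lower genes and made up 5.73% of the reads those genes lost in sum. Lower genes within 2-fold of its mean level, 9 including H19 itself, had a median fitted log2 fold change of -1.15. The authors' deposited table places H19 at rank 6 of the 512 by size of log2 fold change, while by the edgeR log2 fold change it ranked 35 of 512. By p-value the same deposited table places it at rank 5 of the 18313 genes that the authors had tested.

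MEG3 was scarce in all libraries and was about 7 times more abundant with mitoxantrone. MEG3 (ENSG00000214548) lies on the plus strand of chromosome 14, from 101245747 to 101327368 in the deposited coordinates, and starts at 100779410 in GRCh38. The DMSO libraries 1, 2 and 3 held 16, 2 and 7 raw reads of MEG3, and the mitoxantrone libraries held 30, 49 and 62. The groups did not overlap, but DMSO library 1 stood well above the other DMSO libraries. In normalized reads, MEG3 stood at 13.8, 2.06 and 6.0 with DMSO and at 33.9, 51.1 and 66.5 with mitoxantrone. The lowest mitoxantrone library was 2.47 times the highest DMSO library.

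The mean level of MEG3 was 6.95-fold higher with mitoxantrone, at 50.5 ± 16.3 normalized reads (SD, n = 3) against 7.27 ± 5.95 (SD, n = 3). Over the groups there were 25 reads with DMSO and 141 with mitoxantrone, a depth-corrected ratio of 6.71 with a 95% exact counting interval of 4.36 to 10.7. The interval covers counting error only. The edgeR log2 fold change was 2.73 (standard error 0.44). The difference exceeded the spread within groups, but its size depended on 1 library: without DMSO replicate 1 the fitted difference was 11.8-fold in place of 6.65-fold. The authors' deposited table gives MEG3 a smaller log2 fold change, 2.11 (standard error 0.33), and an adjusted p of 4.64e-09. These values selected MEG3, and no further test is made on them.

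MEG3 varied more between libraries than most genes of its level. Its coefficient of variation was 81.8% with DMSO, against 34.6% from counting alone, and 32.3% with mitoxantrone, against 14.6%. The dispersion fitted by edgeR, the squared variation beyond counting, was 0.0709, and 93.2% of the 339 listed genes within 2-fold of its mean had a lower one. For H19 the dispersion was 0.0173, and 26.5% of 34 genes of like level had a lower one.

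The reads credited to MEG3 are less certain than those of H19. In GENCODE release 29 MEG3 overlaps the antisense gene AL117190.2 on the opposite strand and the non-coding gene AL117190.1 on its own strand. The antisense gene covers part of MEG3, from 100834432 to 100861026 in GRCh38. Whether the libraries kept the strand is not given in the sources used here. Within that part, reads of MEG3 and its antisense partner therefore cannot be told apart. H19 overlaps its own microRNA gene and short RNA family entries on the opposite strand. None of these overlapping genes is in the deposited table.

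Per length the transcripts lay far apart. MEG3 stood at 0.06, 0.01 and 0.02 FPKM in the DMSO libraries and at 0.13, 0.20 and 0.27 FPKM in the mitoxantrone libraries. The level of H19 over that of MEG3, each per length, was 4241, 34561 and 13111 in the DMSO libraries and 291, 195 and 154 in the mitoxantrone libraries. The ratio was thus lower in every mitoxantrone library than in any DMSO library, and H19 was the more abundant RNA in all 6. That separation follows from genes selected in opposite directions with no overlap of their groups, and nothing is read from it. The ratio of 34561 rests on 2 raw reads of MEG3 in DMSO library 2. Its scale rests on the deposited gene lengths of 2812 bases for H19 and 15769 bases for MEG3. The 12 annotated H19 transcripts have a median length of 925 bases and the 48 of MEG3 of 1621.5 bases, in GENCODE release 29. With those lengths the median ratio was 4098 (DMSO) and 61.1 (mitoxantrone), in place of 13111 and 195.

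**Figure D2:**
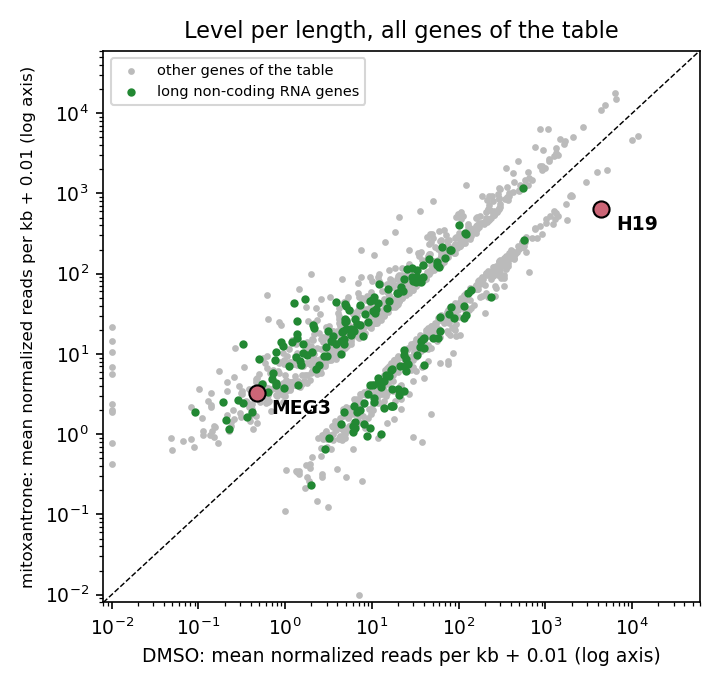
Mean normalized reads per kilobase with DMSO (x) and mitoxantrone (y), both on log axes with 0.01 added, for the 1305 genes of the deposited table, with long non-coding RNA genes in green and the dashed line marking equal levels. H19 lies at the upper right below the line, MEG3 at the lower left above it, and the empty band along the line is the authors' fold threshold.

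Of the 1305 identifiers, 1267 matched GENCODE release 29, and 180 of these are long non-coding RNA genes by type. H19 was the most abundant of them per length with DMSO, far above RP11-304L19.5 at 36.5 ± 6.23 FPKM (SD, n = 3) and LINC00958 at 35.5 ± 4.53 FPKM (SD, n = 3). With mitoxantrone it was second to LINC00958, which stood at 72.8 ± 8.01 FPKM (SD, n = 3). MEG3 ranked 171 of 180 with DMSO and 147 with mitoxantrone. With the edgeR quasi-likelihood test and an adjusted p of 0.05, 94 of the 180 passed as higher and 54 as lower, and their median log2 fold change was 1.52. Of all 1305 listed genes, 740 (56.7%) passed as higher and 461 (35.3%) as lower, 92.0% in all, with a median of 1.26. Since the authors selected every listed gene on this contrast, nothing is read from such shares. When scaling factors were instead recomputed on the table's own genes, by TMM or by DESeq2, the median moved by -0.69 and -0.99 and the split was 366 higher against 512 lower and 219 against 512.

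Genes of imprinted regions moved in both directions. Of 117 symbols in lists for the H19 region, the MEG3 region and other imprinted regions, 8 were in the table, 4 higher and 4 lower. The 6 besides H19 and MEG3 passed the edgeR test, as did 92.0% of all listed genes. The median log2 fold change of the 8, H19 and MEG3 included, was -0.11. With 4 genes on each side it is only the midpoint between a lower and a higher gene, and nothing is read from it. IGF2, DLK1, KCNQ1OT1, RTL1 and DIO3 were not in the table and were not analysed here.

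In the H19 region, 3 of 27 symbols were listed, H19 itself and 2 others. All 3 were lower, as were 512 of the 1305 listed genes, and shared control of the 3 was not tested. CDKN1C, a maternally expressed gene for the cell cycle inhibitor p57, held 22.3, 37.1 and 54.8 normalized reads in the DMSO libraries and 1.13, 4.17 and 5.37 in the mitoxantrone libraries. It is read from the same strand as H19, 882 kb away. TNNI2, a troponin gene that is a neighbour and not an established imprinted gene, fell from 27.8 ± 3.46 (SD, n = 3) to 6.83 ± 1.49 (SD, n = 3). CDKN1C had the larger fitted difference, -3.36 on the log2 scale (standard error 0.51), and both genes are weakly expressed.

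The surroundings of H19 and MEG3 differed in how many listed genes they held. Genes tested around each were not counted, so nothing is read from this difference. Chromosome 11 held 82 listed genes and chromosome 14 held 37. Within 1 Mb of H19 there were 4 listed genes, all with lower means with mitoxantrone, as for 512 of the 1305 listed genes. Besides TNNI2 and CDKN1C these were KRTAP5-1, a keratin-associated protein gene at 17.3 and 5.89 normalized reads, and TOLLIP-AS1 at 23.2 and 8.05, and these did not pass the edgeR test with Benjamini-Hochberg adjustment (adjusted p = 0.104 and 0.0929). The next listed gene, NLRP6 at 1731 kb from H19, went the other way, with means of 18.1 (DMSO) and 42.9 normalized reads (mitoxantrone). Within 1 Mb of MEG3 there were 0 listed genes, and in the 14q32 list MEG3 was the 1 listed of 18 symbols. The nearest listed gene on chromosome 14 was KIF26A, a kinesin family gene 3278 kb away, which fell from 189 ± 19.7 to 88.8 ± 6.49 (SD, n = 3).

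Elsewhere 4 of 72 symbols were listed, 3 higher and 1 lower, while 793 of the 1305 listed genes were higher. TFPI2, a serine protease inhibitor gene that ends at 93520303 on chromosome 7, rose from 784 ± 232 to 2268 ± 222 normalized reads (SD, n = 3). SGCE, a paternally expressed sarcoglycan gene that starts at 94214542 on the same chromosome, fell from 271 ± 22.3 to 112 ± 11.1 (SD, n = 3). GPR1, a chemerin receptor gene beside ZDBF2, was 2.29-fold higher, and SNHG14, the long transcript antisense to UBE3A, was 2.10-fold higher. With factors recomputed by TMM or by DESeq2 neither passed the edgeR test with Benjamini-Hochberg adjustment (adjusted p = 0.78 and 1 for GPR1, 0.63 and 1 for SNHG14), nor did TFPI2 with the latter (adjusted p = 0.24), though all 3 stayed above 0. SNHG14 also missed the threshold with limma on FPKM (adjusted p = 0.056 and 0.062 for pseudocounts of 0.1 and 1).

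**Figure D3:**
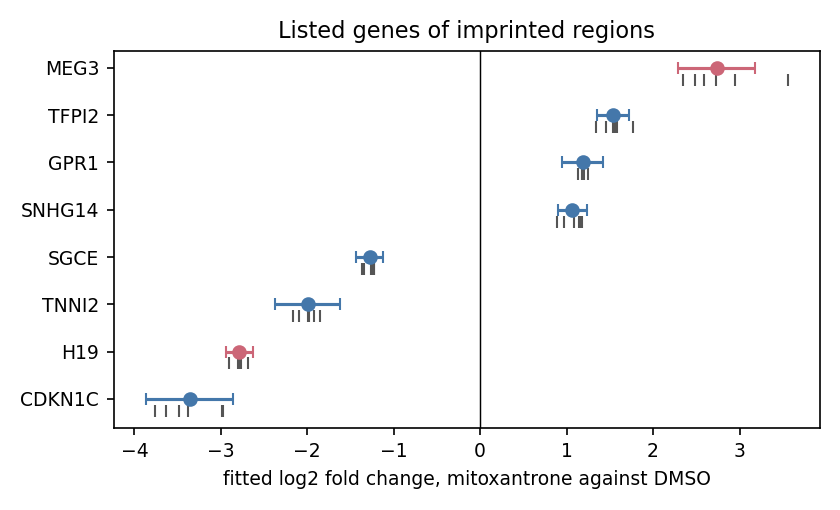
Fitted log2 fold change (x) with its standard error for the 8 listed genes of imprinted regions, H19 and MEG3 in red, with grey ticks for the fits that leave out 1 library each. CDKN1C, H19, TNNI2 and SGCE lie below 0 and SNHG14, GPR1, TFPI2 and MEG3 above 0 in all these fits, and the tick of MEG3 at 3.56 is the fit without DMSO replicate 1.

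H19 and MEG3 belong to a group of imprinted genes that are switched down together after birth, known as the imprinted gene network. Of 18 symbols in that list 4 were in the table: CDKN1C, H19 and SGCE lower and MEG3 higher. The 4 include H19 and MEG3 themselves, and 512 of the 1305 listed genes were lower. Of 38 genes that set or read DNA methylation and Polycomb marks 2 were listed, and both fell, as did 512 of the 1305 listed genes. UHRF1, which brings the maintenance methyltransferase to replicating DNA, fell from 2021 ± 159 to 807 ± 39.7 normalized reads (SD, n = 3), and EZH2, the Polycomb methyltransferase, from 955 ± 51.0 to 447 ± 14.3 (SD, n = 3). CTCF, DNMT1 and TRIM28 were not in the table and were not analysed here. DNA methylation itself was not measured.

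Genes linked to H19 in the literature were sparsely represented. Of 17 genes reported as its regulators 3 were listed. E2F1, an S phase transcription factor reported to activate H19, fell from 730 ± 187 to 278 ± 20.2 normalized reads (SD, n = 3), MAZ, a zinc finger factor, had a log2 fold change of -1.32, and FOXA2, a factor of endoderm, stood at 0.859, 2.06 and 0 normalized reads with DMSO and at 3.39, 13.6 and 11.8 with mitoxantrone. FOXA2 passed the edgeR test (Benjamini-Hochberg adjusted p = 0.0243) but not, for example, without DMSO replicate 1, DMSO replicate 3, mitoxantrone replicate 2 or mitoxantrone replicate 3 (adjusted p = 0.12, 0.13, 0.15 and 0.1). Of 14 genes reported as targets of miR-675 0 were listed.

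H19 has been described as a sponge for the microRNA let-7, and of 24 genes of the let-7 axis 4 were listed. HMGA2, a chromatin protein gene and classic let-7 target, rose from 230 ± 55.4 to 787 ± 9.61 normalized reads (SD, n = 3). The cyclin D genes CCND1 and CCND2 rose 2.16-fold and 2.17-fold, and LIN28B, which blocks let-7 maturation, fell 2.40-fold. With factors recomputed by TMM or by DESeq2, 1 of the 3 passed as higher in place of 3, CCND1 and CCND2 having lost the call. With the authors' factors, 740 of the 1305 listed genes (56.7%) also passed as higher. Let-7 was not measured, and a link between H19 and these genes was not tested.

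Of 20 genes of the insulin-like growth factor axis, in which IGF2 is the neighbour of H19, 3 were listed. IGFBP3, which binds the growth factors, fell 3.01-fold, and STC1, an inhibitor of the protease PAPPA that frees them, rose 24.5-fold. IGFALS, a carrier of the growth factors, was at 10.98 and 2.88 normalized reads (edgeR with Benjamini-Hochberg adjustment, adjusted p = 0.0805).

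The listed genes of the p53 response, to which MEG3 has been linked, were higher, and the other genes of that response were not analysed here. Of 26 targets 15 were listed and all 15 passed as higher, while 740 (56.7%) of all 1305 listed genes did. The median log2 fold change of the 15 was 1.56. The median over the table, 1.26, includes the lower genes, so the medians are not like measures. With factors recomputed by TMM or by DESeq2 13 and 8 of the 15 passed, with medians of 0.87 and 0.57. The largest were CDKN1A, the gene of the cell cycle inhibitor p21, at 2.55, TNFRSF10C, a decoy death receptor, at 2.51, and GDF15, a secreted stress factor, at 2.32. MEG3 was at 2.73 on this fitted scale, with a larger standard error, 0.44 against 0.15 for CDKN1A. The order depended on the estimate: in the authors' deposited table MEG3, at 2.11, lies below CDKN1A at 2.51, TNFRSF10C at 2.42 and GDF15 at 2.27. In reads it was far smaller, at 50.5 with mitoxantrone against 18794 ± 506 (SD, n = 3) for CDKN1A.

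Of 61 names of well known long non-coding RNAs, 4 were listed. Beside H19 and MEG3, CRNDE fell from 137 ± 5.20 to 43.8 ± 7.21 normalized reads (SD, n = 3), and MIR22HG, the host of miR-22, rose from 356 ± 24.8 to 914 ± 50.9 (SD, n = 3), a call that was lost with the DESeq2 factors (edgeR, adjusted p = 0.36).

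The listed genes most like H19 and MEG3 over the 6 libraries were found by the distance between log2(normalized reads + 1) values, each centred on its gene's mean, among 1104 genes with a mean of at least 10 normalized reads. For H19 the nearest was RARRES1, a retinoid-responsive gene, at a distance of 0.38, then CYP1A1, a hydrocarbon-oxidizing enzyme gene, at 0.41, INSIG1, a sterol-regulated gene, at 0.47, RP1-193H18.2 at 0.56 and C19orf81 at 0.56. The median distance from H19 was 4.90. RARRES1 held 141, 222 and 208 normalized reads with DMSO and 21.5, 21.9 and 24.7 with mitoxantrone, so its DMSO library 1 was also the lowest of its group. That was so for RP1-193H18.2 and C19orf81 as well, while CYP1A1 and INSIG1 were lowest in DMSO library 2. RARRES1 was highest in DMSO library 2 and H19 in DMSO library 3.

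For MEG3 the nearest genes were SCN4B, a sodium channel subunit gene, at 0.68, F5, the coagulation factor V gene, at 0.87, RP11-45M22.3 at 1.03, IRAK2, a kinase of interleukin 1 signalling, at 1.05 and FAM196B at 1.09, against a median of 2.83. SCN4B held 17.2, 4.12 and 8.57 normalized reads with DMSO and 72.4, 83.4 and 81.6 with mitoxantrone. All 5 genes shared with MEG3 a DMSO group in which library 1 was highest and library 2 lowest, which the measure rewards. That order, with library 3 between, was seen in 168 of the 793 higher genes (21.2%) and in 45 of the 197 of them within 2-fold of the mean of MEG3.

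**Figure D4:**
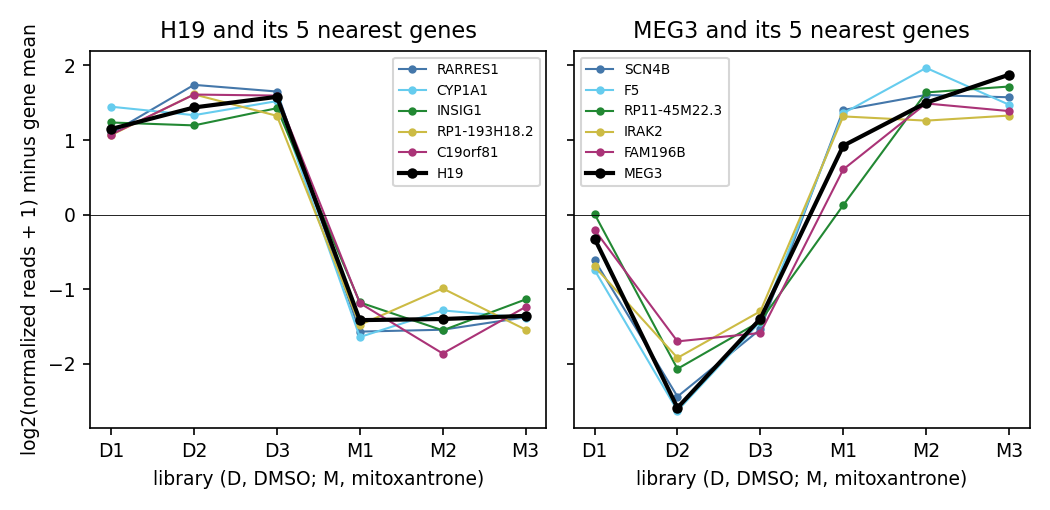
Log2(normalized reads + 1) minus the gene's mean (y) in the 6 libraries (x) for H19 (left) and MEG3 (right) in black and the 5 nearest genes of each in colour, with lines that only join the values of 1 gene. The genes near H19 are all higher in the 3 DMSO libraries, and those near MEG3 share its low DMSO library 2.

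Markers of cell types were looked for beside these results. Of 15 epithelial markers 3 were listed, with KRT8 and KRT18 higher and ELF3 lower. Their summed level was 50569 to 67131 normalized reads with DMSO and 123831 to 154590 with mitoxantrone. Of 16 fibroblast markers COL1A1, TAGLN and ACTA2 were listed, ACTA2 higher and the others lower, summing to 1031 to 1215 and to 786 to 836. Of 11 immune markers 2 were listed, CD14 lower (57.3 and 25.6 mean normalized reads) and ITGAM higher (3.49 and 21.4), summing to 48.1 to 74.5 and to 38.5 to 59.4. Of 8 endothelial markers CDH5 was listed, lower, at 386 to 517 and 188 to 230. With the recomputed DESeq2 factors KRT8, KRT18, ACTA2 and ITGAM lost their calls (edgeR, adjusted p = 0.36, 1, 0.97 and 0.28), and with TMM KRT18 and ITGAM did (adjusted p = 0.22 and 0.076). ITGAM also lost it with limma on log2(FPKM + 1) and without mitoxantrone replicate 2 (adjusted p = 0.39 and 0.061), and CD14 without DMSO replicate 3 or mitoxantrone replicate 3 (edgeR, adjusted p = 0.083 and 0.062). No listed marker was at 0 in any library. The other markers were not analysed here, and the part of these genes in the levels of H19 and MEG3 was not tested.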

How the data were processed

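RNA of 6 libraries of NCI-H292 cells was sequenced in pairs of 150 bases; the labels' protocols offer a poly(A) module or an rRNA removal kit and do not say which was used. The submitters' processing notes list HISAT2 2.0.1, Cufflinks 2.2.1, DESeq2, HTSeq 0.6.1 and cutadapt 1.9.1, with no role. Which build and gene models were used is not given in the sources used here. The authors deposited 1 table with read counts and FPKM per gene and library, per the file headers. Its further columns are the mean normalized count (a signal value), log2 fold change, standard error, test score, p-value and adjusted p-value that the authors deposited. All listed genes differ by 1.0 or more on the log2 scale, with an adjusted p of at most 0.0428. Genes outside the table were not analysed here.

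Size factors were solved from the deposited counts and mean normalized counts (largest relative error 5.0e-10), library totals from FPKM, counts and lengths (100.0% of FPKM values given back within 0.006 or 0.02 percent). The number of genes that the authors tested, 18313, is the one at which adjusted over raw p-values gave whole ranks. All 1305 genes were fitted for treatment with the quasi-likelihood test of edgeR 4.0.16 in R 4.3.3, with those size factors, no filter and Benjamini-Hochberg adjustment for 18313 tests, ranks being taken among the listed genes. The test was tried on simulated data. Standard errors are the log2 fold change over the root of F. Because the table is a selection, its dispersions may be too low. Alternatives used DESeq2 1.42.0, limma 3.58.1 on log2(FPKM + 0.1) and log2(FPKM + 1), other scalings, a filter on low counts, each library left out and the replicate block. The 2 genes and all lists were chosen with earlier results of these data known. The rule for named genes was H19 and MEG3, up to 6 listed members of each list by size of change, and the 5 nearest patterns of each. Neighbouring genes and the most abundant long non-coding RNAs were added after their values were seen. Replicates were no duplicates (chi-square per gene 3.27 to 31.9). Sequences were matched by symbol in RefSeq tables, and both genes matched.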

Additional observations from a re-analysis of the deposited data

How the results depend on the processing

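The fitted log2 fold change of H19 was below 0 and that of MEG3 above 0 in every fit tried: DESeq2, other scalings, a filter on low counts, FPKM, each library left out, and the replicate block. With scaling factors recomputed on the table's own genes by TMM and by DESeq2, H19 had a log2 fold change of -3.48 and -3.78, and with the latter MEG3 had 1.75. These factors centre a selected set that is mostly higher. On log2(FPKM + 0.1) MEG3 had 1.20 and on log2(FPKM + 1) 0.22, where limma no longer called it (adjusted p = 0.29), since both pseudocounts exceed its DMSO level. Leaving out 1 library gave -2.90 to -2.69 for H19 and 2.34 to 3.56 for MEG3. The mean FPKM ratio of mitoxantrone over DMSO, 0.138 for H19 and 6.67 for MEG3, ranged from 0.129 to 0.150 and from 5.0 to 13.3, the highest without DMSO replicate 1. FPKM of MEG3 is rounded to 2 decimals, which limits that ratio. The number of listed genes called was 1201, against 731 with the recomputed DESeq2 factors and 1021 to 1178 with 1 library left out. With the replicate number as a block (replicate block) H19 had -2.78, MEG3 had 2.77 and 1199 genes were called. Same-numbered libraries did not deviate together (correlations over 1105 genes of -0.23, -0.15 and 0.03), so the numbers are taken as names only. At these depths MEG3, with 2 to 16 reads per DMSO library, rests on few reads, and its spread was larger than counting error in both groups. For H19 the spread was larger than counting error with DMSO. With mitoxantrone it was larger in FPKM (4.43% against 2.46%) but not in normalized reads (2.08%).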
